A study of Mus musculus with 8 samples.

Results

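The Hox genes are homeobox transcription factors arranged in mouse as 4 clusters, Hoxa on chromosome 6, Hoxb on chromosome 11, Hoxc on chromosome 15 and Hoxd on chromosome 2. The members described here are the 38 genes of these clusters that the platform annotation names, of 19057 genes it names in all, and they carry 57 of its probes. A log2 intensity was available for 51 of these probes, and 34 probes of 26 genes passed the filter for a test, among 19965 tested probes in total. Expression was measured on Illumina MouseWG-6 BeadChips, 1 array a sample, in EGFP-positive cells sorted by flow cytometry from dissected vertebral columns of E12.5 mouse embryos (strain C57BL/6J;129). The comparison was between 4 samples labelled Bapx1 wildtype and 4 labelled Bapx1 null, and it asks which genes respond to loss of Bapx1 (Nkx3-2), a homeobox factor of the sclerotome. The wildtype samples carried the tm2.Tlu allele, in which an IRES and EGFP follow an intact coding sequence in the 3' UTR, and the study writes this line as heterozygous. The null samples were homozygous for tm4.Tlu, in which EGFP was placed directly behind the start codon and part of the coding sequence was removed. In both groups EGFP was driven from the Bapx1 locus, and at least 2 independent embryonic stem cell clones were used per allele. The number of reporter copies and the way EGFP is translated therefore differ with genotype, and what the sort gate selected and what the mutation changed cannot be told apart.

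Along the body axis Hox genes are switched on in the order in which they lie on the chromosome, so that low-numbered paralogues (genes of the same number in different clusters) reach far rostrally and high-numbered ones are restricted to the caudal trunk and tail. In the vertebral column this nested code gives cervical, thoracic, lumbar, sacral and caudal vertebrae their shapes, and in mouse loss of a whole paralogue group turns the affected vertebrae into those of another level. Hox proteins bind DNA together with Pbx and Meis homeodomain partners, and Polycomb complexes keep the unused part of each cluster silent.

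Before the Hox values, the libraries and their labels were checked. Median intensity per array was 5.6 to 10.1, and 41% to 45.8% of probes were detected (detection p under 0.05). Null replicate 1 correlated on average at 0.972 with the other null arrays and at 0.976 with the wildtype arrays, and wildtype replicate 2 at 0.969 with its own group, while the other 6 arrays lay between 0.979 and 0.985. The Hox comparisons below are therefore given with and without null replicate 1. Because that array was singled out for lying near the wildtype arrays, leaving it out widens the separation of the groups by construction, and calls made without it describe the remaining 7 arrays and are no independent support. For the targeted gene, the Nkx3-2 probe ILMN_2687592 read 4.42, 4.46, 4.48 and 4.84 (log2 intensity) on wildtype replicates 1 to 4, where it was not detected, and 5.45, 7.49, 6.59 and 7.55 on null replicates 1 to 4, where it was detected on all 4. This is opposite to a loss of the transcript, and since no source used here places the probe relative to the removed sequence, it does not check the labels, so that wildtype and null below always mean the arrays labelled so. The study calls its replicates biological, neither its methods nor the labels say if each came from 1 embryo or from several, and p-values measure the spread between these samples.

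Sequence at the gene starts was examined first, since Hox clusters are known to be regulated in part by Hox proteins and their partners. RefSeq promoter entries (GRCm38.p6) were found for 22 of the 38 genes, in 24 entries, and the 250 bases before each start were searched on both strands for TGATNNAT, a core of composite sites for Pbx and Hox proteins, and for TTTATNG, a core bound by posterior Hox and Cdx proteins. The letters TGATNNAT stood in 4 of the 24 Hox entries (16.7%) and in 7.68% of 32851 promoters of all genes, and TTTATNG stood in 2 of 24 (8.33%) and in 9.81% of all promoters. Of the 2 tested Hoxa2 probes, 1 separated the genotypes once null replicate 1 was left out. Shown here are 5 of the 8 windows found, with the match in capitals. They set Hoxa2 and Hoxd4 beside Hoxb1, Hoxb8 and Hoxd11, which were detected on at most 1 array.
Hoxa2, chr6:52164924-52164953, minus strand: gacttttttggATCAATCAaacagacagtg
Hoxb1, chr11:96365585-96365614, plus strand: tgattggggggTGATGGATgggcgctggga
Hoxd11, chr2:74682239-74682268, plus strand: ttaccaccagaATCAATCAagatgaattgc
Hoxd4, chr2:74721922-74721951, plus strand: gccaaaggttaTTTATGGttctgcagagcc
Hoxb8, chr11:96281774-96281803, plus strand: cagactccggcTTTATTGcgttttatagtt
The Hoxa2 match begins 111 bases before the start, that of Hoxb1 162 bases and that of Hoxd11 73 bases, and Hoxa2 and Hoxd11 hold it on the opposite strand of the gene, with the same 8 letters. In Hoxd4 the match to TTTATNG begins 45 bases before the start, and in Hoxb8, which held TTTATNG 3 times and TGATNNAT 1 time, the one shown begins 120 bases before it. The same letters thus stood before genes that were detected on all 8 arrays (Hoxa2, Hoxd4) and before genes that were detected on 0 (Hoxb1, Hoxb8) or on 1 (Hoxd11), and a match is only a description of the sequence.

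Most Hox genes were detected in the sorted cells. Of the 38 genes, 26 (68.4%) had a probe detected on at least 4 of the 8 arrays, 24 were detected on all 8, and 7 were detected on none. Over the array, 10951 of the 19057 named genes had a probe of their own that passed the filter of 4 arrays. The difference between these shares was not tested. By cluster, 8 of 10 Hoxa, 7 of 10 Hoxb, 5 of 9 Hoxc and 6 of 9 Hoxd genes passed this filter, and by position along the axis 8 of 11 genes of paralogues 1 to 4, 8 of 11 of paralogues 5 to 8 and 10 of 16 of paralogues 9 to 13. The paralogue 1 genes, which in mouse act mainly in the hindbrain, were at or near background: neither Hoxb1 probe was detected on any array, and Hoxd1 was detected on 1 wildtype and 2 null arrays. All genes of paralogues 2, 3, 5, 7 and 9 passed, among them all 4 of paralogue 9, which in mouse helps to set rib-bearing vertebrae. At the caudal end Hoxb13 and Hoxc12 were detected on no array and Hoxd13 on 1, whereas Hoxa13, Hoxc13 and Hoxd12 passed the filter.

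**Figure D1:**
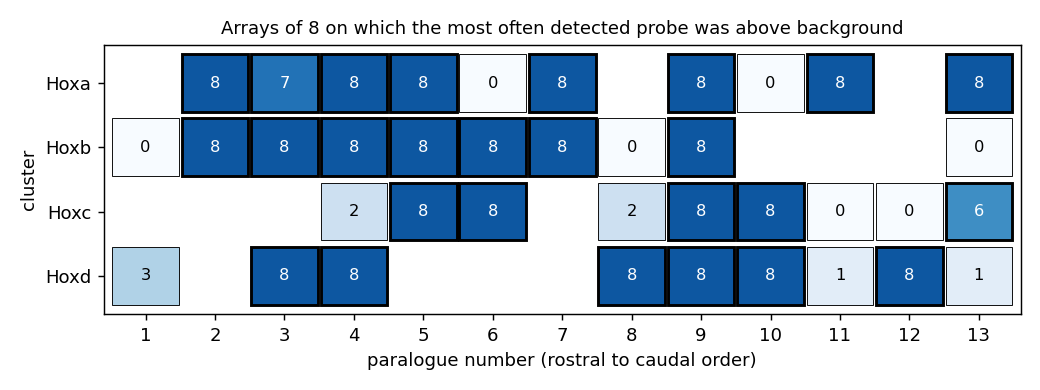
Number of the 8 arrays on which each Hox gene was detected (most often detected probe), by cluster (rows) and paralogue number (columns), with a heavy outline for the 26 genes tested. Detection was contiguous in much of each cluster but gave 0 arrays for Hoxa6, Hoxa10, Hoxb1, Hoxb8, Hoxb13, Hoxc11 and Hoxc12.

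The detected stretch was interrupted inside clusters. Hoxa6 lies between Hoxa5 and Hoxa7, and Hoxa10 between Hoxa9 and Hoxa11, and both were detected on 0 arrays while all 4 neighbours were detected on 8. Hoxb8 stood in the same way between Hoxb7 and Hoxb9. In Hoxc, Hoxc8 was detected on 1 array of each genotype between Hoxc6 and Hoxc9, each detected on 8. In Hoxd, Hoxd11 lies between Hoxd10 and Hoxd12, each detected on 8, and its 2 probes were detected on 1 and 0 arrays. The other gaps named here rest on 1 probe a gene with a value. How much a probe's own affinity counts in any of these gaps was not tested. One more probe of Hoxa9 (ILMN_2772762) was detected on 0 arrays although the other Hoxa9 probes were detected on 7 and 8, which shows that probes of 1 Hox gene can differ in this way.

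The number of detected Hox genes was similar in both genotypes. On wildtype replicates 1 to 4, 28, 25, 27 and 25 Hox genes had a detected probe, and on null replicates 1 to 4 the numbers were 28, 27, 27 and 27. Hoxc4, a cervical paralogue, was detected on 0 wildtype and 2 null arrays, with 4.24, 4.24, 4.22 and 4.24 on wildtype replicates 1 to 4 and 4.23, 5.21, 4.78 and 5.11 on null replicates 1 to 4. Its null replicate 1 lay within the wildtype values and the other 3 null arrays above all of them, but the probe did not pass the filter and was not tested, and no fold is given because the bound was under 1. Hoxd11 and Hoxd13 were each detected on 1 wildtype and on no null array.

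In the comparison of null with wildtype over all 8 arrays, no Hox probe passed the test. With limma and Benjamini-Hochberg adjustment over all 19965 tested probes, 0 of 34 Hox probes had an adjusted p under 0.05, against 156 of all probes, or 0.781%. At an unadjusted p under 0.05 there were 5 Hox probes (14.7%) against 21.7% of all probes, and analysis of variance per probe, the kind of test the methods name, gave 0 Hox probes after adjustment (0.0601% of all probes) and 4 before (18.8% of all probes). On none of the 34 probes were the 4 null values all above or all below the 4 wildtype values, while this held for 10.8% of all probes. Without wildtype replicate 1 the order of the unadjusted shares was the other way, 11 of 34 Hox probes (32.4%) against 20.9% of all probes, and the difference between these shares was not tested. In bulk RNA of sorted cells, fewer cells of a type and less RNA per cell cannot be told apart, and this holds for every value below.

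Over the 26 genes, each read by its brightest tested probe, the median null minus wildtype difference was 0.09 (log2) beside -0.03 for the 10951 tested genes of the array, with 14 Hox genes above 0 and 12 below, and its sign depended on the scaling: it was 0.31 (all genes 0.20) with median centring and -0.53 (all genes -0.37) when arrays were scaled by their median absolute deviation. Single genes spanned -0.54 (Hoxb3) to 1.01 (Hoxc13). Of the 7 genes with more than 1 tested probe, 6 had all probes on the same side of 0, Hoxa2 being the exception. The sizes could differ, with 0.12 and 1.12 for Hoxc10 and 0.33 and 0.02 for Hoxb7. Without null replicate 1 the same Hoxb7 probes gave 0.41 and -0.11. For Hoxa13, 1 of its tested probes passed the filter mainly through the wildtype arrays, where it was higher.

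**Figure D2:**
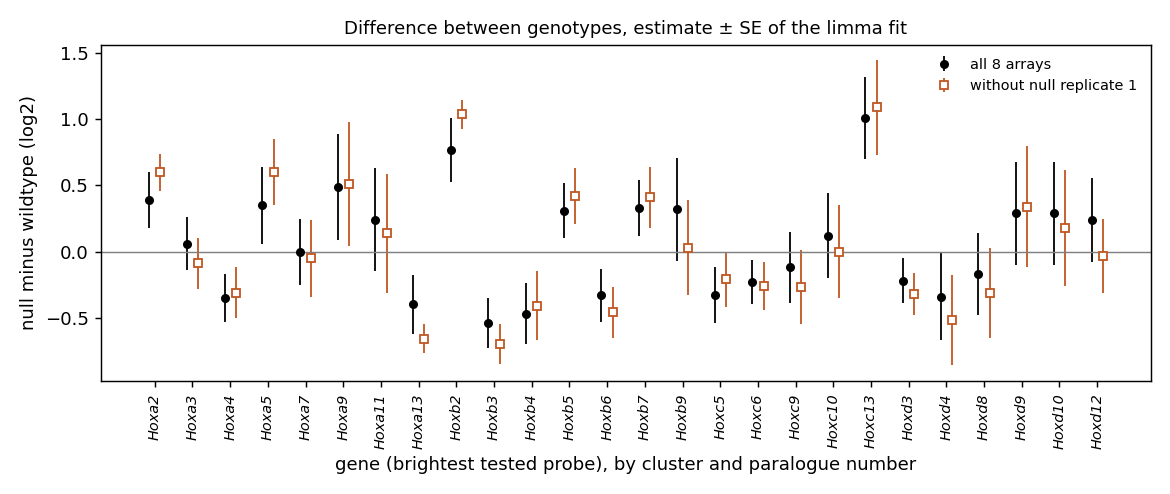
Null minus wildtype difference (log2, estimate ± SE of the limma fit) for the brightest tested probe of 26 Hox genes, ordered by cluster and paralogue number, with all 8 arrays (filled) and without null replicate 1 (open). Hoxc13 (1.01) and Hoxb2 (0.77) lie highest and Hoxb3 (-0.54) lowest with all arrays, and leaving out null replicate 1 moves Hoxb2 from 0.77 to 1.04 and Hoxa13 from -0.40 to -0.66.

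Without null replicate 1 some Hox probes passed the test. In that fit 6 of 34 Hox probes (17.6%) had an adjusted p under 0.05, beside 15.9% of all probes, 3 higher in null (9.26% of all probes) and 3 lower (6.61% of all probes). The probes that were higher belonged to Hoxa2, Hoxb2 and Hoxc10, and those that were lower to Hoxb3 and, with both of its tested probes, Hoxa13. Groups did not overlap on 6 of 34 Hox probes (17.6%), a smaller share than the 34.1% of all probes. Null replicate 1 lay nearer to the wildtype mean than to the mean of the other null arrays on 21 of the 34 Hox probes (61.8%) and on 64.4% of all tested probes.

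Hoxb2 and Hoxa2, the paralogue 2 genes, are known in mouse for patterning the hindbrain and the second branchial arch and have the lowest paralogue number among the Hox genes that passed the filter. Hoxb2 (ILMN_2598083) read 8.97, 8.65, 8.79 and 8.95 on wildtype replicates 1 to 4 and 8.78, 9.85, 9.95 and 9.87 on null replicates 1 to 4. Null replicates 2 to 4 lay within a narrow band above every wildtype array, and null replicate 1 lay among the wildtype values. The difference was 0.77 ± 0.24 (log2, SE, n = 4 and 4, limma adjusted p = 0.135), and without null replicate 1 it was 1.04, or 2.06-fold higher (limma adjusted p = 0.00316, n = 4 and 3). For Hoxa2 the brighter probe (ILMN_2874270) read 10.49, 10.11, 10.06 and 9.96 on wildtype replicates 1 to 4 and 9.93, 10.86, 10.74 and 10.66 on null replicates 1 to 4, the same arrangement of arrays as for Hoxb2. This probe gave 0.39 ± 0.21 (limma adjusted p = 0.298) and 0.60, or 1.51-fold, without null replicate 1 (limma adjusted p = 0.0304). The other Hoxa2 probe (ILMN_2618302) did not show it: its values were 9.98, 9.44, 9.63 and 9.64 in wildtype and 9.57, 9.75, 9.53 and 9.47 in null, a difference of -0.09 (limma adjusted p = 0.705) with all arrays and -0.09 (limma adjusted p = 0.698) without null replicate 1. Since the Hoxa2 probes differ, the value of the gene is uncertain, and ILMN_2874270 is described in full because it was called without null replicate 1.

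Beside Hoxb2 on its cluster, Hoxb3, which acts in the hindbrain and cervical region, was placed the other way. Its brightest probe (ILMN_2450689) read 9.25, 9.26, 8.90 and 8.74 on wildtype replicates 1 to 4 and 8.96, 8.37, 8.26 and 8.38 on null replicates 1 to 4. Null replicate 1 was again the array that lay inside the wildtype range. The difference was -0.54 ± 0.19 (limma adjusted p = 0.153), and without null replicate 1 it was -0.70, 1.62-fold lower in null (limma adjusted p = 0.0228). Of the other tested Hoxb3 probes, ILMN_3150064 gave -0.34 and ILMN_3071262 gave -0.18 with all arrays. ILMN_3150064 read lowest on null replicate 1 (4.69), where it was not detected. Without that array these probes gave -0.21 (limma adjusted p = 0.274) and -0.01 (limma adjusted p = 0.989), so that the call for Hoxb3 rests on 1 probe. The neighbouring Hoxb4 read 8.61 to 9.80 in wildtype and 8.48 to 8.91 in null (difference -0.47, limma adjusted p = 0.272), with overlapping groups.

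**Figure D3:**
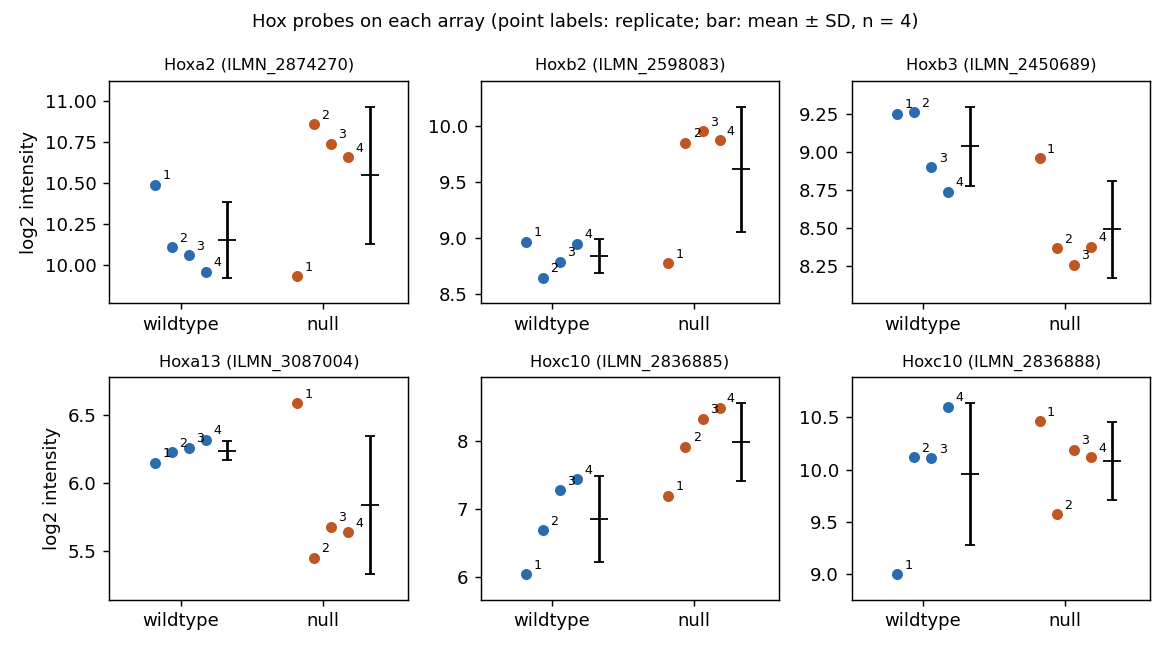
Log2 intensity of 6 Hox probes on each array (points, labelled by replicate) with the mean ± SD of 4 arrays per genotype. For Hoxa2, Hoxb2, Hoxb3 and Hoxa13 null replicate 1 (9.93, 8.78, 8.96 and 6.59) lies apart from null replicates 2 to 4, and the 2 Hoxc10 probes differ in their order of arrays.

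The remaining genes of paralogues 3 and 4, which help to pattern cervical vertebrae, overlapped between genotypes. Hoxd4 read 9.16, 10.44, 8.92 and 9.60 on wildtype replicates 1 to 4 and 9.76, 9.16, 9.16 and 8.70 on null replicates 1 to 4, and its high value was on wildtype replicate 2 (difference -0.34 ± 0.33, limma adjusted p = 0.562). Without that array the Hoxd4 difference was -0.03. Hoxd3 (-0.22), Hoxa4 (-0.35) and Hoxa3 (0.06) had adjusted p from limma of 0.471, 0.275 and 0.888.

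Paralogues 5 to 8, the thoracic part of the code, differed by -0.33 to 0.35 over 8 genes, but by -1.41 to -0.27 when arrays were scaled by their median absolute deviation, where the median of all genes was -0.37. Hoxc6 read 11.46 to 12.17 in wildtype and 11.50 to 11.70 in null, and the Hoxa7 means were 9.48 in both groups. Hoxa5, which in mouse acts at the boundary of the neck and the thorax, had the highest difference of these genes (0.35 ± 0.29, limma adjusted p = 0.498). It read 10, 10.40, 10.57 and 11.17 on wildtype replicates 1 to 4 and 10.13, 11.24, 11.20 and 10.97 on null replicates 1 to 4, with null replicate 1 again near the low wildtype values. Hoxb6 and Hoxc5 were both at -0.33 (limma adjusted p = 0.359 and 0.381) and Hoxb5, Hoxb7, Hoxd8 and Hoxc6 at 0.31, 0.33, -0.17 and -0.23. Hoxc5 read 5.28, 6.08, 5.72 and 6.16 in wildtype and 5.10, 5.70, 5.48 and 5.65 in null, low on the first array of each group.

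Of paralogues 9 to 13, paralogue 9 helps in mouse to set rib-bearing vertebrae, and the higher numbers pattern the lumbar, sacral and caudal levels. The whole class is called caudal below. In it Hoxc10, Hoxc13 and Hoxa13 had the smallest p. Hoxc10, a lumbosacral gene, was read by 2 probes. The dimmer one (ILMN_2836885) read 6.05, 6.69, 7.28 and 7.44 on wildtype replicates 1 to 4 and 7.20, 7.92, 8.33 and 8.49 on null replicates 1 to 4. All null arrays but replicate 1 lay above all wildtype arrays, with a difference of 1.12 ± 0.35 (limma adjusted p = 0.131) and 1.39, or 2.62-fold, without null replicate 1 (limma adjusted p = 0.0286). The brighter probe (ILMN_2836888) read 9.0, 10.12, 10.11 and 10.60 in wildtype and 10.46, 9.57, 10.19 and 10.12 in null, a difference of 0.12 ± 0.32 (limma adjusted p = 0.843), so that the call for Hoxc10 rests on 1 probe. Hoxc13, of the tail end of its cluster, read 5.30, 4.89, 6.08 and 4.56 on wildtype replicates 1 to 4, detected on 2 of them, and 6.02, 6.21, 6.75 and 5.86 on null replicates 1 to 4, detected on all. Its difference of 1.01 ± 0.31 (limma adjusted p = 0.131) did not pass without null replicate 1 either (1.09, limma adjusted p = 0.0761), with wildtype replicate 3 overlapping the null values.

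Hoxa13, which is known for the distal limb and the hindgut and genital region, gave lower values on both of its tested probes. Probe ILMN_3087004 read 6.15, 6.23, 6.26 and 6.32 on wildtype replicates 1 to 4 and 6.59, 5.45, 5.68 and 5.64 on null replicates 1 to 4, so null replicate 1 was the highest of all 8 arrays and the other null arrays were the 3 lowest. The difference was -0.40 ± 0.22 (limma adjusted p = 0.321) and -0.66, 1.58-fold lower, without null replicate 1 (limma adjusted p = 0.00852). The dimmer probe (ILMN_3015589) read 5.10, 5.52, 4.99 and 5.33 in wildtype, detected on all 4 arrays, and 5.15, 4.70, 4.81 and 4.45 in null, detected on 1. It gave -0.46 ± 0.17 (limma adjusted p = 0.180) and, without null replicate 1, -0.59 or 1.51-fold lower (limma adjusted p = 0.0413). This probe passed the filter mainly through the wildtype arrays, where it was higher, so it is no independent support for the other probe. Of 8 tested limb bud and flank markers 0 passed the test, and 3 reached a p under 0.05 before adjustment, beside 21.7% of all probes. These were Alx4, Irx3 and Irx5, at 1.34, 1.14 and 0.89 (log2, null minus wildtype). The forelimb gene Tbx5 and the hindlimb gene Pitx1 were detected on no array, and the hindlimb gene Tbx4 (ILMN_1253515) on 3 wildtype and 4 null arrays. The part of limb tissue in the Hoxa13 values was not tested.

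The other caudal genes differed between genotypes by less than the SD of the wildtype arrays. Hoxd10, a lumbar gene with a motor neuron role in mouse, read 9.73, 10.11, 11.44 and 11.44 on wildtype replicates 1 to 4 and 11.32, 10.49, 11.03 and 11.06 on null replicates 1 to 4 (difference 0.29 ± 0.39, limma adjusted p = 0.673), and without wildtype replicate 1 the difference was -0.02. Hoxa9 (ILMN_2645155) read 5.62, 5.01, 6.89 and 6.90 in wildtype and 6.55, 6.34, 6.55 and 6.92 in null (0.49 ± 0.40, limma adjusted p = 0.489). In both genes wildtype replicates 1 and 2 were low and the 2 other wildtype arrays were at or above most null arrays. Hoxd9 (ILMN_2800183) read 5.89, 7.22, 7.34 and 8.04 in wildtype and 7.28, 7.01, 7.51 and 7.85 in null. Hoxa11 read 6.00, 6.61, 7.93 and 7.37 in wildtype and 7.52, 6.58, 7.15 and 7.63 in null. Hoxc9, Hoxb9 and Hoxd12 differed by -0.12, 0.32 and 0.24, with adjusted p from limma of 0.824, 0.640 and 0.676.

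The spread of Hox genes between arrays of 1 genotype was widest for the caudal paralogues. The median SD over the 4 wildtype arrays was 0.29 (log2) for paralogues 1 to 4, 0.41 for paralogues 5 to 8 and 0.67 for paralogues 9 to 13, beside 0.21 for all tested genes, but when arrays were scaled by their median absolute deviation these medians were 0.56, 1.07 and 0.94, beside 0.50. In null they were 0.32, 0.29 and 0.41, beside 0.20 for all tested genes. Most of the caudal genes moved together from array to array. The mean deviation of the 10 genes of paralogues 9 to 13 from their own means was -0.72, -0.36, 0.31 and 0.27 on wildtype replicates 1 to 4. On null replicates 1 to 4 it was 0.48, -0.34, 0.25 and 0.11, so low and high arrays occurred in both genotypes. Hoxa13 departed from these means, at 0.11 and 0.19 on wildtype replicates 1 and 2. Hoxc13 was at -1.15 on wildtype replicate 4 and at 0.51 on null replicate 2. Hoxc9 and Hoxc10 were above their own means on wildtype replicate 2, at 0.33 and 0.1.

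Wildtype replicate 1 was below the gene mean for 9 of 10 caudal genes and for 8 of 8 genes of paralogues 5 to 8, and null replicate 2 for 9 of 10 caudal genes. Null replicate 1 was below it for 0 of 10. The genes of paralogues 1 to 4 did not follow: their mean deviation was 0.03, 0.25, -0.11 and 0.00 on wildtype replicates 1 to 4 and -0.04, -0.01, 0.02 and -0.15 on null replicates 1 to 4. The caudal mean minus the rostral mean was -0.75, -0.61, 0.43 and 0.27 in wildtype and 0.52, -0.34, 0.23 and 0.26 in null, and its sign on each array was the same under the 4 scalings tried. Neither the labels nor the methods state which axial levels each dissected column held, and the part of dissection in this pattern was not tested.

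**Figure D4:**
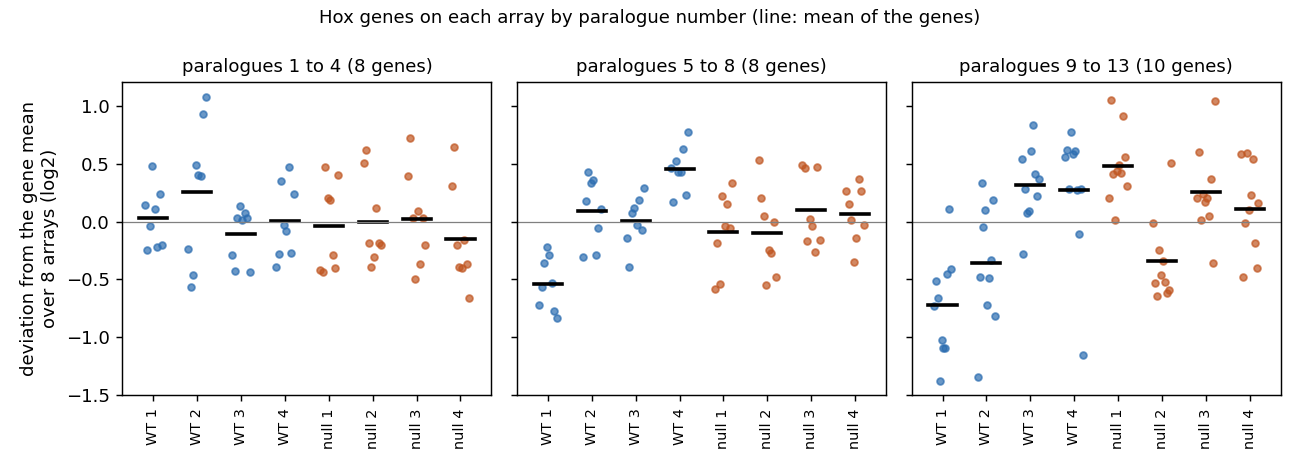
Deviation of each Hox gene (points, brightest tested probe) from its mean over the 8 arrays (log2) by paralogue class, with the mean of the genes as a line, on wildtype (WT) and null arrays. For paralogues 9 to 13 the lines lie lowest at -0.72 and -0.36 on wildtype replicates 1 and 2 and at -0.34 on null replicate 2, while for paralogues 1 to 4 they stay between -0.15 and 0.25.

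Some marker lists of other cells moved with some of the same arrays. The 8 tested blood and macrophage markers had mean deviations of -0.47, -0.89, 0.28 and 1.18 on wildtype replicates 1 to 4 and 0.14, -0.40, 0.27 and -0.11 on null replicates 1 to 4, and the 15 tested skeletal muscle markers -0.35, -0.83, 0.06 and -0.07 in wildtype and 1.06, -0.23, 0.50 and -0.14 in null. Both lists were thus lowest on the 3 arrays with low caudal Hox values, and their part in the Hox values was not tested. The other cell type marker lists did not have this order. On wildtype replicates 1 and 2 and null replicate 2, limb bud and flank markers were at 0.26, -0.77 and 0.13. On the same arrays endothelium markers were at -0.57, -0.89 and 0.74, and neural progenitor markers at 0.10, 0.25 and -0.26.

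By class, the median null minus wildtype difference was -0.28 for paralogues 1 to 4, -0.09 for paralogues 5 to 8 and 0.27 for paralogues 9 to 13, where 8 of 10 genes were above 0. The rostral class was lowest and the caudal class highest under all 4 scalings (-0.01, 0.18 and 0.53 with median centring, and -0.78, -0.61 and 0.07 when arrays were scaled by their median absolute deviation). The caudal median rested on wildtype replicate 1: without that array it was -0.05, with 4 of 10 genes above 0, and without null replicate 1 it was 0.08, with 6 of 10. The rostral median was -0.34 without wildtype replicate 1 and lay between -0.34 and -0.10 over all single omissions, nearest 0 without wildtype replicate 2 (-0.10) and null replicate 4 (-0.14). Without these arrays the median of paralogues 5 to 8 was -0.12 and -0.16, so the rostral class was then not the lowest.

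The partners of Hox proteins and the regulators of the clusters did not pass the test over all arrays. Of 8 tested TALE homeodomain cofactors 0 were called, also without null replicate 1, the smallest p being those of Meis1 (0.27, limma adjusted p = 0.30) and Pbx3 (0.34, limma adjusted p = 0.329). Of 14 tested upstream and axial timing regulators 0 were called, and 4 reached a p under 0.05 before adjustment, beside 21.7% of all probes. Aldh1a2, which makes retinoic acid, a known inducer of rostral Hox genes, read 7.55, 7.15, 6.98 and 7.43 in wildtype and 7.93, 8.22, 7.95 and 8.40 in null. Its groups did not overlap, and its difference was 0.85 ± 0.16 (1.80-fold, limma adjusted p = 0.0509), which passed the threshold without null replicate 1 (limma adjusted p = 0.0144). The same gene is also on the meninges list, where Vtn (2.24) and Slc22a6 (1.99) rose, and the part of these cells in the Aldh1a2 value was not tested. Acvr2a, a receptor of the Gdf11 signal that in mouse sets the transition to caudal Hox genes, gave 0.68 (limma adjusted p = 0.0987). Without null replicate 1 its limma adjusted p was 0.0280. The related receptor gene Acvr2b, in the same list, went the other way, at -0.53 (limma adjusted p = 0.241). Of the retinoic acid receptor genes, Rarg gave -0.33 (limma adjusted p = 0.208) and Rarb 0.19 (limma adjusted p = 0.663). Cdx1 and Cdx4, direct activators of central Hox genes at earlier stages, were detected on no array and Cdx2 on 1 wildtype array.

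Among Polycomb and trithorax genes, 28 were tested, 0 were called, and 5 reached a p under 0.05 before adjustment, beside 21.7% of all probes. Cbx2, a Polycomb subunit whose loss in mouse shifts vertebral identities, read 7.83, 8.61, 7.96 and 7.90 in wildtype and 7.85, 7.31, 7.27 and 7.11 in null (-0.69, limma adjusted p = 0.128, and 0.0256 without null replicate 1). Kmt2d, a histone methyltransferase, gave -0.40 (limma adjusted p = 0.125). Of the others among these 5, Eed gave -0.39 (limma adjusted p = 0.128). Cbx6 and Ring1 went the other way, at 0.68 and 0.37 (limma adjusted p = 0.131 and 0.195). Of 11 tested genes that lie beside the clusters or are transcribed within them 0 were called, Smug1 beside Hoxc giving 0.41 (limma adjusted p = 0.124) and Skap2 beside Hoxa 0.47 (limma adjusted p = 0.199). Without null replicate 1, 3 of the upstream regulators (2 higher, 1 lower), 5 of the Polycomb and trithorax genes (2 higher, 3 lower) and 2 of the genes beside the clusters (both higher) passed, beside the 15.9% of all probes given above.

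Markers of several cell types differed between the labels, and neural tube, neural crest and mesenchyme are all known to use Hox genes. Of the annotated sclerotome and cartilage markers, which define the labelled tissue, 13 of 16 passed the filter in each list. Of 13 tested cartilage markers 6 fell in null, and the mean level of the list was 8.71 to 9.38 (log2) on wildtype arrays and 7.75 to 8.41 on null arrays. Of 13 tested sclerotome markers 2 fell, Uncx (-1.59, limma adjusted p = 0.0254) and Pax1 (-1.09, limma adjusted p = 0.0358), both transcription factors of the vertebral anlagen, and the 1 that rose was Nkx3-2 itself, the targeted gene. Of 21 tested neuron markers 1 rose, and the list had mean levels of 6.38 to 7.36 in wildtype and 7.41 to 8.27 in null. The marker that rose was Lhx5, detected on 4 arrays, at 4.44 to 4.85 in wildtype and 5.26 to 6.48 in null. Lhx5 thus lay near background in wildtype, and Nkx3-2, detected on null arrays only, passed the filter through the group where it was higher. Of 13 meninges markers 2 rose (mean levels 8.60 to 9.24 and 9.64 to 10.04), and of 10 endothelium markers 1 rose (5.60 to 6.49 and 6.64 to 7.23). Of 4 tested neural crest and Schwann precursor markers 1 rose, whereas of 7 neural progenitor markers 2 fell, Nkx2-2 and Nkx6-1, each by 1.26. Over all probes 0.781% were called. Without null replicate 1, where 15.9% of all probes were called, 5 neuron, 5 meninges and 4 endothelium markers were higher, 2 progenitor markers were higher and 2 lower, 4 sclerotome markers were lower, 7 cartilage markers were lower, and 1 neural crest marker was higher and 1 lower. The part of these lists in the Hox values was not tested.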

How the data were processed

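RNA of 4 wildtype and 4 null samples of sorted cells was labelled and hybridised, 1 array a sample. Per the labels and methods, GenomeStudio (version: not given in the sources used here) subtracted the background, and in 1 deposited table the authors give the resulting linear intensity, with 28% to 31.4% of values per array below 0. That table also has a deposited detection value, a fraction that approaches 1 for bright probes, and 1 minus it served as the detection p. In a second deposited table the authors give log2 values less a baseline per probe. The methods describe scaling by the median absolute deviation, a percentile filter, analysis of variance with Benjamini-Hochberg adjustment and a fold cutoff.

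The intensity table names probes by array address, so addresses were paired with probe identifiers by equal values in both tables: 35665 of 45281 probes (78.76%) had a unique match within 0.001 (log2), with a largest deviation of 1.7e-06, over the 7 arrays that both hold. Null replicates 2, 3 and 4 of the log2 table are null replicates 1, 2 and 3 of the non-normalized table, whose numbering is used, and its null replicate 1 matched no array. Of 57 Hox probes 51 had a match; every tested probe had one. Gene names are those of the platform annotation, which gives 34885 probes 1 gene and 18 several, and leaves 10378 unlisted. No probe of a Hox gene was shared with another gene.

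Intensities were processed with limma 3.58.1 (R 4.3.3, statmod 1.5.0): normexp correction based on detection p (offset 16), then quantile normalization, then log2. Probes detected (p under 0.05) on 4 or more arrays were tested with lmFit and eBayes and Benjamini-Hochberg adjustment over all of them, at 0.05. The number of arrays limits the precision. For gene summaries the tested probe of highest mean was taken, and levels of different probes were not compared. Matching used pandas 2.3.3 and scipy 1.17.1 under Python 3.11.15, figures were drawn with matplotlib 3.10.9, and the fit was tested on simulated data. Same-numbered replicates of the genotypes deviated with correlations of -0.0492, -0.107, -0.195 and 0.0356, so the numbers were not treated as pairs.

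The members and gene lists were chosen with earlier results of these data known. Named in full were Hox probes with an unadjusted p under 0.05, the 2 largest differences per cluster and, in the lists of cofactors, regulators and neighbours, the 2 genes of smallest p; cell type marker lists are given by counts and levels. Hoxa2 probe ILMN_2874270 and the second Hoxa13 probe were added after their values without null replicate 1 were seen, as were the other Hox genes shown by array and the Cdx genes. Alternatives were a floor in place of normexp, other scalings and filters, each array left out, array weights, the replicate block, analysis of variance and the second table. Medians by paralogue class without each array were added after seeing the data.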

Additional observations from a re-analysis of the deposited data

Results flagged for a closer look

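Within the 4 arrays of a genotype, 1 array lay far from the other 3 in 4 of 68 groups of tested Hox probes (5.88%), where chance flags about 1 in 20. Null replicate 1 was that array for 3 of the 4. It read 8.78 for Hoxb2 (next null value 9.85), 8.96 for the brightest Hoxb3 probe (next 8.38) and 4.69 for Hoxb3 probe ILMN_3150064 (next 5.2). The other was Hoxc9 on wildtype replicate 1, at 9.34 (next wildtype value 10.28). The share of such flags over all tested probes is not given here, so they are not read as particular to Hox genes. On 64.4% of all tested probes, null replicate 1 lay nearer to the wildtype mean than to that of the other null arrays.

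Outside the tested probes, Hoxc4 (ILMN_2521794) and a second probe of Hoxa3 (ILMN_1234863) were each detected on 2 null arrays and on no wildtype array. The Hoxa3 probe read 4.48 to 4.92 in wildtype and 4.51 to 5.11 in null, overlapping, and neither difference was tested.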

How the results depend on the processing

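The counts of called probes rested on the arrays and the scaling, and the cause of these shifts was not tested. Over all probes the 156 calls became 99 with a floor of 16 in place of normexp, 1 with scaling by median absolute deviation, 75 with no detection filter, 12 by analysis of variance, 16 in the second table, 6190 with array weights and 3970 with wildtype replicate 2 and null replicate 1 both left out. Leaving out each array in turn gave 29 to 3168, the highest without null replicate 1. Of the calls 49.4% were higher in null, and 79.8% of 109 with median centring. The Hox count of 0 became 7 with array weights (31.0% of all probes called) and 6 with both arrays left out (19.9%), and was 0 to 6 with each array left out, 6 only without null replicate 1; the other settings but the replicate block gave 0. With the replicate block, all calls numbered 20 and Hox calls 1, the dimmer Hoxc10 probe (limma adjusted p = 0.0467). The Hox median of 0.09 was -0.53 with median absolute deviation scaling, -0.19 with weights and -0.15 to 0.23 with each array left out, and 26 genes were detected under each of these omissions. Reversed were Hoxa2 ILMN_2874270 (-0.41 with median absolute deviation scaling, -0.09 by its other probe) and Hoxd10 (-0.64 with that scaling, -0.16 with weights, -0.01 with both arrays left out, -0.02 to 0.55 with each array left out, lowest without wildtype replicate 1).

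Dim probes such as those of Hoxc13, Hoxc5 and the dimmer Hoxa13 probe lay close to background, where a difference is understated. With no detection filter, limma called 0 of 51 Hox probes, with 6 at an unadjusted p under 0.05.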
